A study of Mus musculus with 4 samples.

Results

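The genes described here encode the nuclear-coded subunits of the mitochondrial oxidative phosphorylation machinery, measured in mouse colon tumours and normal colon. They were gathered by symbol, as genes whose names begin with Ndufa, Ndufb, Ndufc, Ndufs, Ndufv, Uqcr, Cox4i, Cox5, Cox6, Cox7, Cox8 or Atp5, together with Sdha, Sdhb, Sdhc, Sdhd, Cyc1 and Cycs. The rule found 91 of the 22180 genes on the array, and 78 of them reached 4.67 on at least 1 array. That value is the median of all gene means and is called the background level below. It was not set from background probes, so a gene below it is not shown to be absent. Total RNA was hybridised to 4 Affymetrix whole-transcript arrays, with 1 array for each of 4 groups: tumour of Dmt1 F/F mice, tumour of Dmt1 wild-type mice, normal colon of Dmt1 F/F mice and normal colon of Dmt1 wild-type mice. All 4 groups were C57BL/6 mice aged 3 months that carried 1 floxed Apc allele (ApcF/+), and all 4 labels hold the word CDX2 without saying which element or cell type it stands for. Dmt1 is the iron importer encoded by Slc11a2, and F/F denotes 2 floxed copies of that gene. The series' design text counts 4 F/F and 7 wild-type animals, so an array may hold RNA of 1 animal or of several. Whether tumour and normal tissue were taken from the same mice is likewise not stated.

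Oxidative phosphorylation passes electrons from NADH and succinate to oxygen through complexes I to IV and uses the resulting proton gradient to make ATP at complex V, the ATP synthase. Iron is built into this chain as iron-sulfur clusters in complexes I, II and III, and as heme in complexes II, III and IV and in cytochrome c. In the colon, mature absorptive cells use this chain to oxidise butyrate and other fatty acids supplied by the bacteria of the lumen.

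Values are RMA log2 signals, so a difference of 1 is a doubling, and levels of different genes are not compared because each probe set has its own brightness. The medians of the 4 arrays over all probe sets lay between 4.27 and 4.34. Slc11a2 itself read 6.19 in F/F tumour, 6.64 in wild-type tumour, 6.13 in F/F normal colon and 6.51 in wild-type normal colon. It was lower in F/F in both tissues, with a fitted F/F minus wild-type difference of -0.41 that did not pass the test (adjusted p = 0.564, limma). The probe set was not placed relative to the floxed exon, so this value does not check the labels. Of 15 measured absorptive colonocyte markers, 15 were above the background level on at least 1 array and 13 on all 4 arrays. The exceptions were Slc51a, at 3.35 in F/F tumour and 3.33 in wild-type tumour, and Tmigd1, at 4.20 in wild-type tumour.

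Of the 91 genes, 13 were below the level of 4.67 on every array and were not tested. Closest outside that level were Atp5j2 (highest value 4.58), Ndufaf2 (4.39) and Atp5g1 (4.33), and closest inside were Ndufb11 (5.18), Uqcrq (5.19) and Ndufaf5 (5.19). The 13 hold the tissue-restricted subunits Cox4i2, Cox6a2, Cox6b2, Cox7b2, Cox8b and Cox8c, the subunit paralogue Ndufa4l2, the subunits Ndufs5, Atp5g1 and Atp5j2, the assembly factor Ndufaf2, and the pseudogenes Atp5c1-ps and Uqcrh-ps1. The symbol rule also takes in genes that are not subunits: 8 Ndufaf assembly factors of complex I and Cox7a2l, a factor that joins complexes III and IV. Ndufa4 carries a complex I name and is now placed in complex IV, where it is counted here. Subunits encoded by mitochondrial DNA were not analysed here.

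Nuclear genes of this chain are known to share a few short promoter elements, and the sequences of 4 promoters are shown for genes whose transcripts were lower in tumour. RefSeq promoters (build GRCm38.p6, 250 bases before to 50 bases after the start) were found for 66 of the 78 genes, 71 promoters in all. Both strands were searched for the NRF1 motif (GCGCA and GCGC around 1 free base), CCGGAAG, bound by ETS-family factors such as GABP, AAGATGGCG, bound by YY1, and TCAAGGTCA, bound by estrogen-related receptors. The NRF1 letters were in 23.9% of the 71 promoters and in 4.60% of 32851 RefSeq mouse promoters, and the ETS letters were in 26.8% and 8.86%. The YY1 letters were in 8.45% of the 71 promoters and in 1.40% of all promoters. The receptor letters were in 2.82% of the 71 promoters, those of Sdhd and Atp5g3, and in 0.423% of all promoters. In the following sequences, printed 5′ to 3′ on the gene's strand, capitals mark the matches to any of these letters on either strand. The promoter of Sdhd, which encodes a heme-binding membrane anchor of complex II, lies at chr9:50603800-50604099, minus strand, and holds the NRF1, ETS and receptor letters. That of Atp5g3, which encodes the c-ring subunit of ATP synthase, lies at chr2:73911277-73911576, minus strand, and holds the NRF1 and receptor letters. That of Atp5k, which encodes subunit e of ATP synthase, lies at chr5:108434350-108434649, minus strand, and holds the NRF1 and ETS letters. That of Uqcrfs1, which encodes the Rieske iron-sulfur protein, lies at chr13:30545267-30545566, minus strand. None of the searched letters is in that window.
Sdhd: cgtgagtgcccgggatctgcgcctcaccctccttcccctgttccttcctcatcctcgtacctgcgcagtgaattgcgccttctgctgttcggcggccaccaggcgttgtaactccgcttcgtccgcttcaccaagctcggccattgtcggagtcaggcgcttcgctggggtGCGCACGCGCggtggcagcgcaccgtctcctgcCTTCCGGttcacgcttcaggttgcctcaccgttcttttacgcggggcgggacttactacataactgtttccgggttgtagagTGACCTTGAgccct
Atp5g3: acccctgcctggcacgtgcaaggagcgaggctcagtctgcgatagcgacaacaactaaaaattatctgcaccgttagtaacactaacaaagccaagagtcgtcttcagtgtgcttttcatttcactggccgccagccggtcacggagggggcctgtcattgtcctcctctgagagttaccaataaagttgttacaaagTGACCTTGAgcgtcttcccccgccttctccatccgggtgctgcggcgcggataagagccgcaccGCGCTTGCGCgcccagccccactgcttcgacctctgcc
Atp5k: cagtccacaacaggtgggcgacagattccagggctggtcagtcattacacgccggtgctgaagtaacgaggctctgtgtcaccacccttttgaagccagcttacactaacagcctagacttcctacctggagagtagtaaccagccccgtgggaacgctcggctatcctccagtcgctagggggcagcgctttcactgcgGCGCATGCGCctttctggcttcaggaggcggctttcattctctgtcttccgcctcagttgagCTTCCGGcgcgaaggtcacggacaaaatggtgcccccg
Uqcrfs1: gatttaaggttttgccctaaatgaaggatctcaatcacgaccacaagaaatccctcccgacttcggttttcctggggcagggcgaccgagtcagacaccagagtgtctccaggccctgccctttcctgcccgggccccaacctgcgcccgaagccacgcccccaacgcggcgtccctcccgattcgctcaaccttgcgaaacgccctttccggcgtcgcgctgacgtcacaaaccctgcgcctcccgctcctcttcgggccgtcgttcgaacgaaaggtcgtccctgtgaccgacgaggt

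The first question was how the chain's transcripts differ between tumour and normal colon. They were lower in tumour: of the 78 genes tested, 24 fell and 0 rose in a limma fit with tissue and genotype as terms (adjusted p between 0.0192 and 0.0498). Over all 12060 genes tested, 8.23% fell and 11.0% rose. At an unadjusted p under 0.05, 48 of the 78 were lower (16.1% of all genes) and 0 were higher (22.7% of all genes). The median fitted tumour minus normal difference of the 78 genes was -0.45, a level 1.36-fold lower in tumour, against 0.07 over all genes. The largest fall, in Cox7b, was 2.13-fold, and the smallest fall among the 24 was -0.44. Both tumour arrays were below both normal arrays for 70 of the 78 genes (29.2% of all genes), and both were above for 0 (40.1% of all genes). A further 21 genes had an adjusted p between 0.05 and 0.1. Of the 78 genes, 1 passed the background level through the normal arrays alone, the complex III gene Uqcrq, and it is not among the 24.

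This fit uses 4 arrays and leaves 1 residual degree of freedom, so its error is the disagreement of the 2 genotypes about the tissue difference, moderated over all genes, and not a spread between animals. The standard errors of the 78 genes lay between 0.09 and 0.26. The count of 24 was 43 after each array was centred on its median, 16 when all genes on the array were tested and 10 without the mean-variance trend, and none of the 78 rose in any of these settings.

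**Figure D1:**
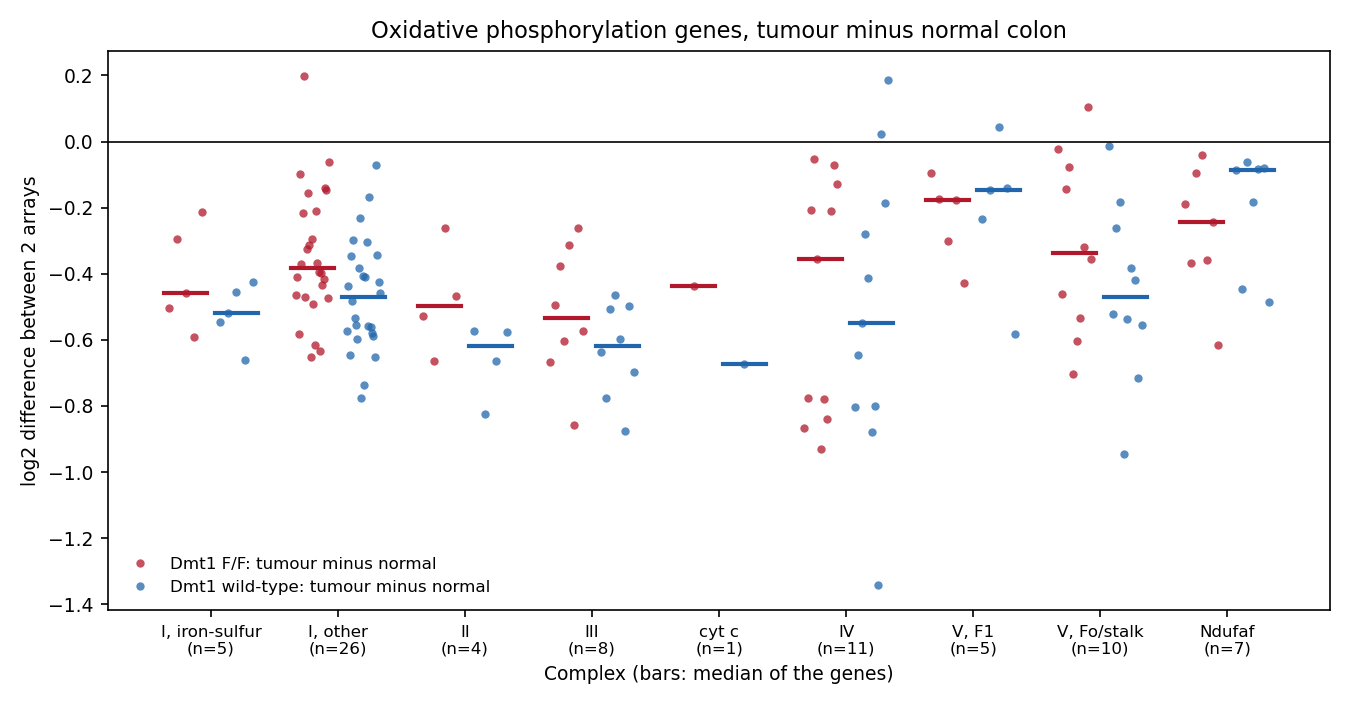
Tumour minus normal log2 differences of 77 genes, those of the 5 complexes, Cycs and the Ndufaf factors, with 1 point per gene and the bar at the median of the genes; F/F in red at the left of each pair and wild-type in blue at the right. In F/F 76 and in wild-type 75 of the 78 tested genes lay below 0, and the median was -0.37 in F/F and -0.49 in wild-type.

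The 7 measured subunits that carry iron-sulfur clusters were all lower in both tumour arrays than in both normal arrays. The same order held for 70 of all 78 genes and for 29.2% of all genes tested, so it is not particular to these subunits. Of the 7, 4 fell in the fit (8.23% of all genes), and the median fitted difference of the 7 was -0.52. The shares of 8.23% and 29.2% also stand beside the counts of the complexes and heme subunits that follow. Uqcrfs1, whose product passes electrons within complex III, read 6.01 in F/F tumour, 5.69 in wild-type tumour, 6.87 in F/F normal colon and 6.56 in wild-type normal colon. Its tumour minus normal difference was -0.86 in F/F and -0.87 in wild-type, and the fit gave -0.87 (SE 0.12, adjusted p = 0.0221). The tumour arrays lay apart from the normal arrays, and F/F was the higher array in each tissue. Sdhb, the iron-sulfur subunit of succinate dehydrogenase, read 7.89 in F/F tumour and 7.66 in wild-type tumour, against 8.56 in F/F normal colon and 8.48 in wild-type normal colon. Its groups did not overlap, and the fitted difference was -0.74 (SE 0.12, adjusted p = 0.0254).

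In complex I the clusters run from Ndufv1 and Ndufv2, next to the flavin that takes electrons from NADH, through Ndufs1 to Ndufs8 and Ndufs7 near the quinone site. Ndufv1 read 7.54 in F/F tumour and 7.37 in wild-type tumour, against 8.14 in F/F normal colon and 8.03 in wild-type normal colon, and fell by 0.63 (SE 0.11, adjusted p = 0.0321). Ndufs1 read 8.18 in F/F tumour and 7.94 in wild-type tumour, against 8.68 in F/F normal colon and 8.48 in wild-type normal colon, and fell by 0.52 (SE 0.11, adjusted p = 0.0421). The tumour arrays of both genes were the low pair. A dim probe set shared by Ndufs1 and Ino80dos ran the other way, higher in tumour by 0.21 in F/F and 0.18 in wild-type. The other 3 did not pass the test: the fitted difference was -0.46 for Ndufs8 (adjusted p = 0.0551), -0.41 for Ndufs7 (0.0896) and -0.32 for Ndufv2 (0.123). Ndufs8 was nearly level between genotypes, with 7.93 in F/F tumour and 7.92 in wild-type tumour, against 8.39 in F/F normal colon and 8.37 in wild-type normal colon. For Ndufs7 and Ndufv2 the wild-type tumour array was the lowest of the 4.

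**Figure D2:**
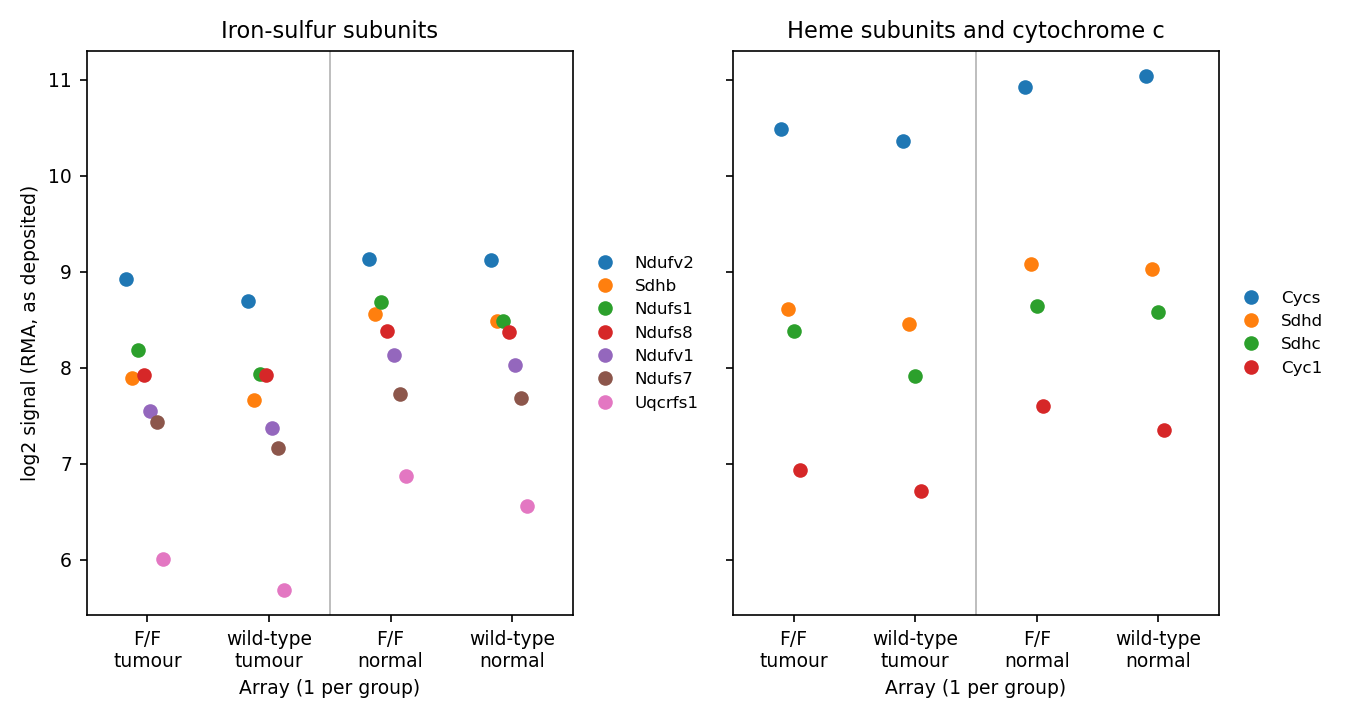
Log2 signal on each of the 4 arrays for the iron-sulfur subunits (left) and the heme subunits with cytochrome c (right), with 1 point per gene and array and small sideways offsets between genes. For each of the 11 genes both tumour points lie below both normal points, as for Uqcrfs1 at 6.01 and 5.69 in tumour and 6.87 and 6.56 in normal colon.

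The heme-bearing subunits and cytochrome c showed the same order of arrays, and 3 of 4 fell. Cyc1, the cytochrome c1 of complex III, read 6.93 in F/F tumour and 6.72 in wild-type tumour, against 7.60 in F/F normal colon and 7.35 in wild-type normal colon, with a fitted difference of -0.65 (SE 0.12, adjusted p = 0.0315). Cycs, the mobile cytochrome c, read 10.48 in F/F tumour and 10.36 in wild-type tumour, against 10.92 in F/F normal colon and 11.03 in wild-type normal colon, with a fitted difference of -0.56 (SE 0.11, adjusted p = 0.0384). All 5 Cycs probe sets were lower in tumour in both genotypes, and 2 of the 5 held identical values. Under quantile normalization the Cycs difference was -0.40 and did not pass. Sdhd, whose promoter is printed above, read 8.61 in F/F tumour and 8.46 in wild-type tumour, against 9.08 in F/F normal colon and 9.03 in wild-type normal colon, and fell by 0.52 (adjusted p = 0.0422). Its partner in the membrane anchor, Sdhc, read 8.38 in F/F tumour and 7.92 in wild-type tumour, against 8.64 in F/F normal colon and 8.58 in wild-type normal colon. The Sdhc difference of -0.46 did not pass (adjusted p = 0.091), and its SE of 0.14 reflects a tumour minus normal difference of -0.26 in F/F and -0.66 in wild-type.

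Complex II had 3 of its 4 subunits among the genes that fell, with a median of -0.54. Its flavoprotein Sdha, which oxidises succinate, read 9.50 in F/F tumour and 9.29 in wild-type tumour, against 10.02 in F/F normal colon and 9.86 in wild-type normal colon. The fitted Sdha difference was -0.55 (SE 0.10, adjusted p = 0.0334).

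In complex III 4 of 8 genes fell, with a median of -0.58. Both tumours were below both normals for 8 of 8 (29.2% of all genes). The genes that fell included Uqcrfs1 and Cyc1. The other 2 of the 4 were the core protein gene Uqcrc1 (-0.53, adjusted p = 0.0422) and the small subunit gene Uqcrb (-0.44, adjusted p = 0.0469). Uqcrb did not pass under quantile normalization (-0.31) or cyclic loess (-0.37). Uqcrc1 read 8.57 in F/F tumour and 8.35 in wild-type tumour, against 9.17 in F/F normal colon and 8.81 in wild-type normal colon, so the wild-type normal array was nearer the tumours than the F/F one. Uqcr11 and Uqcrq, which encode 2 further small subunits, had fitted differences of -0.64 (adjusted p = 0.0535) and -0.63 (adjusted p = 0.0787). Uqcrh, the acidic hinge protein, had the difference nearest 0 in the complex, -0.38 (adjusted p = 0.102).

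Complex I is the largest complex, and 7 of its 31 tested genes fell, with a median of -0.45. Apart from Ndufv1 and Ndufs1 these were the accessory subunit genes Ndufa9, Ndufa11, Ndufb7, Ndufa1 and Ndufb9. Ndufa9, whose product sits near the quinone site, read 8.15 in F/F tumour and 7.84 in wild-type tumour, against 8.81 in F/F normal colon and 8.62 in wild-type normal colon, with a fitted difference of -0.71 (SE 0.11, adjusted p = 0.0258). Ndufa11, a membrane-arm subunit, read 7.08 in F/F tumour and 7.17 in wild-type tumour, against 7.66 in F/F normal colon and 7.81 in wild-type normal colon (-0.61, adjusted p = 0.0347). Both genes had a gap between the tumour pair and the normal pair. The Ndufa11 difference was -0.43 and did not pass with the mean of its probe sets, of which the second is dim. Ndufb7 fell by 0.60 (adjusted p = 0.0478), Ndufa1 by 0.52 (adjusted p = 0.0483) and Ndufb9 by 0.51 (adjusted p = 0.0386; -0.34 and not passed under quantile normalization), while Ndufb10 had -0.61 with an adjusted p of 0.0582. At the other end were Ndufc2 with -0.11 (adjusted p = 0.499) and Ndufa3 with -0.17 (adjusted p = 0.577). Both tumours were below both normals for 30 of the 31 complex I genes (29.2% of all genes), the exception being Ndufa3.

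Complex IV, cytochrome c oxidase, spanned a wide range: 5 of 11 genes fell, with a median of -0.38, while others stood near 0. Its core is encoded by mitochondrial DNA, and the genes here encode the nuclear subunits around it. Cox7b read 8.68 in F/F tumour and 8.30 in wild-type tumour, against 9.52 in F/F normal colon and 9.64 in wild-type normal colon, with a fitted difference of -1.09 (SE 0.16, adjusted p = 0.0228). A second, dimmer Cox7b probe set went otherwise, with 4.52 in F/F tumour and 3.66 in wild-type tumour, against 3.67 in F/F normal colon and 3.89 in wild-type normal colon. Only its F/F tumour value stood apart, and it was the high one. With the mean of the probe sets in place of the brighter one, the Cox7b difference was -0.39 and did not pass. Cox4i1, which encodes the regulatory subunit 4 found in most tissues, read 8.12 in F/F tumour and 8.02 in wild-type tumour, against 8.98 in F/F normal colon and 8.82 in wild-type normal colon (-0.84, SE 0.11, adjusted p = 0.0192). Cox7a2 read 7.58 in F/F tumour and 7.37 in wild-type tumour, against 8.36 in F/F normal colon and 8.17 in wild-type normal colon (-0.79, adjusted p = 0.0218). Cox5a, a matrix-side subunit, fell by 0.71 (adjusted p = 0.0255). In these genes the higher tumour value was below the lower normal value by a wide margin relative to the gap between genotypes.

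Among the other complex IV genes, Cox5b and Cox6b1 had a fitted difference of -0.38 each, which did not pass the test. The remaining genes of the complex differed little between tissues. Cox6a1 had a fitted difference of -0.17 (adjusted p = 0.307), Cox8a -0.13 (adjusted p = 0.405) and Cox7c -0.09 (adjusted p = 0.657). Ndufa4 was the 1 gene of the 78 with a fitted value above 0, at 0.03 (adjusted p = 0.885), and read 9.12 in F/F tumour and 9.57 in wild-type tumour, against 9.25 in F/F normal colon and 9.38 in wild-type normal colon. The tumour arrays were thus its lowest and its highest.

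Cox7a1, the isoform of subunit 7a known from heart and skeletal muscle and from brown fat, was the 1 tissue-restricted complex IV gene above the background level. It read 4.96 in F/F tumour and 4.64 in wild-type tumour, against 5.89 in F/F normal colon and 5.52 in wild-type normal colon, and fell by 0.91 (SE 0.15, adjusted p = 0.0293). Beside it, the summed linear signal of 10 smooth muscle genes was 3829 in F/F tumour and 2449 in wild-type tumour, against 5451 in F/F normal colon and 8641 in wild-type normal colon. The summed signal of 10 fat cell genes was 394 in F/F tumour and 290.2 in wild-type tumour. In normal colon the sum was 1501 in F/F and 874 in wild-type, and 4 of the 6 tested genes fell (8.23% of all genes). Pparg had the highest signal of the 10 on every array, so it weighs most in this sum. The mean log2 value of the 10 genes was 4.403 in F/F tumour and 4.246 in wild-type tumour. It was 5.805 in F/F normal colon and 5.007 in wild-type normal colon. Ucp1 and Cidea, which define brown fat, and the fat cell hormones Adipoq and Lep were below the background level on every array. Even so, both tumour arrays were below both normal arrays for Adipoq and Lep, though not for Ucp1 and Cidea. Adipoq read 3.37 in F/F tumour and 3.48 in wild-type tumour, against 4.41 in F/F normal colon and 3.94 in wild-type normal colon. Lep read 2.69 in F/F tumour and 2.79 in wild-type tumour, against 4.24 in F/F normal colon and 2.93 in wild-type normal colon. Of 10 striated muscle genes, 7 were below the level on all arrays, among them Mb, Myh1, Myh2 and Myh4. The part of these cell types in the Cox7a1 value was not tested.

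In complex V 4 of 15 genes fell, with a median of -0.30. All 4 are among the genes of the membrane sector and the peripheral stalk, where 4 of 10 fell: Atp5k, Atp5l, Atp5g3 and Atp5md. Atp5md, a small membrane subunit gene, did not pass under quantile normalization (-0.36) or cyclic loess (-0.41). Of the 5 tested genes of the F1 sector, the ATP-making head with its central shaft, 0 fell or rose in limma. At an unadjusted p under 0.05, 1 of them was lower (16.1% of all genes). That 1 was Atp5e, with a fitted difference of -0.51 (adjusted p = 0.0606), which passed after median centring (-0.59), quantile normalization (-0.61) and cyclic loess (-0.60). The median fitted difference was -0.41 for the membrane and peripheral stalk genes and -0.16 for the F1 sector. This contrast between sectors was not tested. Atp5k read 6.57 in F/F tumour and 6.58 in wild-type tumour, against 7.27 in F/F normal colon and 7.52 in wild-type normal colon, with a fitted difference of -0.82 (SE 0.13, adjusted p = 0.026). Its tumour values lay together and well below the normal ones. Atp5g3, a c-ring gene, read 7.81 in F/F tumour and 7.65 in wild-type tumour, against 8.27 in F/F normal colon and 8.17 in wild-type normal colon (-0.49, adjusted p = 0.0498). Its paralogue Atp5g2, which encodes the same mature c subunit, read 9.29 in F/F tumour and 9.33 in wild-type tumour, against 9.31 in F/F normal colon and 9.35 in wild-type normal colon. The Atp5g2 arrays stood together, with a fitted difference of -0.02 (SE 0.10, adjusted p = 0.913). The catalytic head genes Atp5a1 and Atp5b had fitted differences of -0.16 each (adjusted p = 0.3 for Atp5a1 and 0.271 for Atp5b). Atp5c1, which encodes the central shaft, had -0.13 (adjusted p = 0.577).

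Among the 7 tested Ndufaf assembly factors of complex I, 0 fell or rose in limma. At an unadjusted p under 0.05, 2 of them were lower (16.1% of all genes). Their median was -0.16, and the lowest was Ndufaf8 at -0.55 (adjusted p = 0.0674), which passed after median centring (-0.64), quantile normalization (-0.68) and cyclic loess (-0.64). The next lowest were Ndufaf3 at -0.41 (adjusted p = 0.0962), Ndufaf6 at -0.22 (adjusted p = 0.358) and Ndufaf7 at -0.16 (adjusted p = 0.393), and the highest were Ndufaf5 at -0.11 (adjusted p = 0.649) and Ndufaf4 at -0.08 (adjusted p = 0.653). Of 36 other assembly factors of the chain 4 fell (11.1%, against 8.23% of all genes) and 0 rose, with a median of -0.17. Sco1, a copper chaperone of complex IV, read 7.10 in F/F tumour and 6.71 in wild-type tumour, against 8.12 in F/F normal colon and 7.91 in wild-type normal colon (-1.11, adjusted p = 0.0149). Coa3, another complex IV assembly factor, fell by 0.97 (adjusted p = 0.0226), and the highest were Cox18 at 0.39 (adjusted p = 0.119) and Nubpl, a complex I cluster-insertion factor, at 0.37 (adjusted p = 0.224). Of 11 tested genes that build iron-sulfur clusters 2 fell (18.2%) and 0 rose, with a median of -0.15. These were the ferredoxin gene Fdx1 (-0.85, adjusted p = 0.048) and the late-acting Isca1 (-0.58, adjusted p = 0.0398). Fdx1 read 4.30 in F/F tumour and 4.32 in wild-type tumour, against 5.23 in F/F normal colon and 5.09 in wild-type normal colon, so it entered the test through the normal arrays alone and its fall is no independent support. Highest beside Nubpl, which is in both lists, was Lyrm4 at 0.16 (adjusted p = 0.447).

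Other mitochondrial gene lists give the frame for these values. Of all genes tested 8.23% fell and 11.0% rose in limma. At an unadjusted p under 0.05, 16.1% of all genes were lower and 22.7% were higher. Of 15 tested fatty acid oxidation genes 12 fell and 0 rose, with a median of -0.78, led by Acaa2 (-1.30, adjusted p = 0.0112) and Acads (-1.17, adjusted p = 0.0123), enzymes of the beta-oxidation spiral. Its highest were Acadl at -0.10 (adjusted p = 0.529) and Decr1 at -0.43 (adjusted p = 0.0791). Of 15 tricarboxylic acid cycle genes 5 fell and 0 rose (median -0.37), with Suclg2 (-0.83, adjusted p = 0.0176) and Suclg1 (-0.71, adjusted p = 0.0256) the lowest, both subunits of succinyl-CoA ligase. The isocitrate dehydrogenase genes Idh3a at 0.16 (adjusted p = 0.302) and Idh3g at 0.00 (adjusted p = 0.995) were the highest. Of 66 tested mitochondrial ribosome genes 0 fell or rose in limma, 3 were lower and 1 was higher at an unadjusted p under 0.05, and their median was -0.03. They ran between Mrps31 at -0.63 (adjusted p = 0.0528) and Mrpl12 at -0.47 (adjusted p = 0.062) at the low end and Mrps2 at 0.48 (adjusted p = 0.122) and Mrps25 at 0.31 (adjusted p = 0.135) at the high end. Of 17 genes of mitochondrial import and dynamics 1 fell (5.88%, below the share of all genes) and 0 rose (median -0.18). The fusion genes Mfn2 (-0.53, adjusted p = 0.05, just under the threshold) and Mfn1 (-0.44, adjusted p = 0.079) were the lowest, and the import genes Tomm20 (0.31, adjusted p = 0.193) and Tomm40 (0.30, adjusted p = 0.149) the highest. The oxidative phosphorylation median thus lay between those of fatty acid oxidation and of the mitochondrial ribosome, as a description with no test between lists. Of 12 glycolysis genes 0 fell and 1 rose (8.33%, below the share of all genes), the lactate exporter gene Slc16a3 (1.43, adjusted p = 0.0154). At an unadjusted p under 0.05, 5 glycolysis genes were lower and 2 higher, and the median was -0.17. Next to Slc16a3 the highest was Pgam1 (0.31, adjusted p = 0.127), and Hk1 (-0.65, adjusted p = 0.0576) and Pfkl (-0.65, adjusted p = 0.0733) were the lowest.

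Among 15 regulators of mitochondrial biogenesis 2 fell and 2 rose, 13.3% each, near the shares of all genes (8.23% fell and 11.0% rose), with a median of 0.06. Ppara, a fatty acid-sensing nuclear receptor, read 3.69 in F/F tumour and 3.43 in wild-type tumour, against 5.86 in F/F normal colon and 4.76 in wild-type normal colon (-1.75, adjusted p = 0.0287). Both tumour values are below the background level, so Ppara entered the test through the normal arrays alone and its fall is no independent support. Ppargc1b, the coactivator PGC-1beta that works with estrogen-related receptors and NRF1, read 6.74 in F/F tumour and 5.95 in wild-type tumour, against 7.53 in F/F normal colon and 7.55 in wild-type normal colon (-1.19, adjusted p = 0.0354). Its relative Pprc1 rose by 0.73 (adjusted p = 0.031) and Myc, a growth-promoting transcription factor, by 1.44 (adjusted p = 0.0109). Values of the 2 rising genes were higher in both tumours than in both normal arrays.

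**Figure D3:**
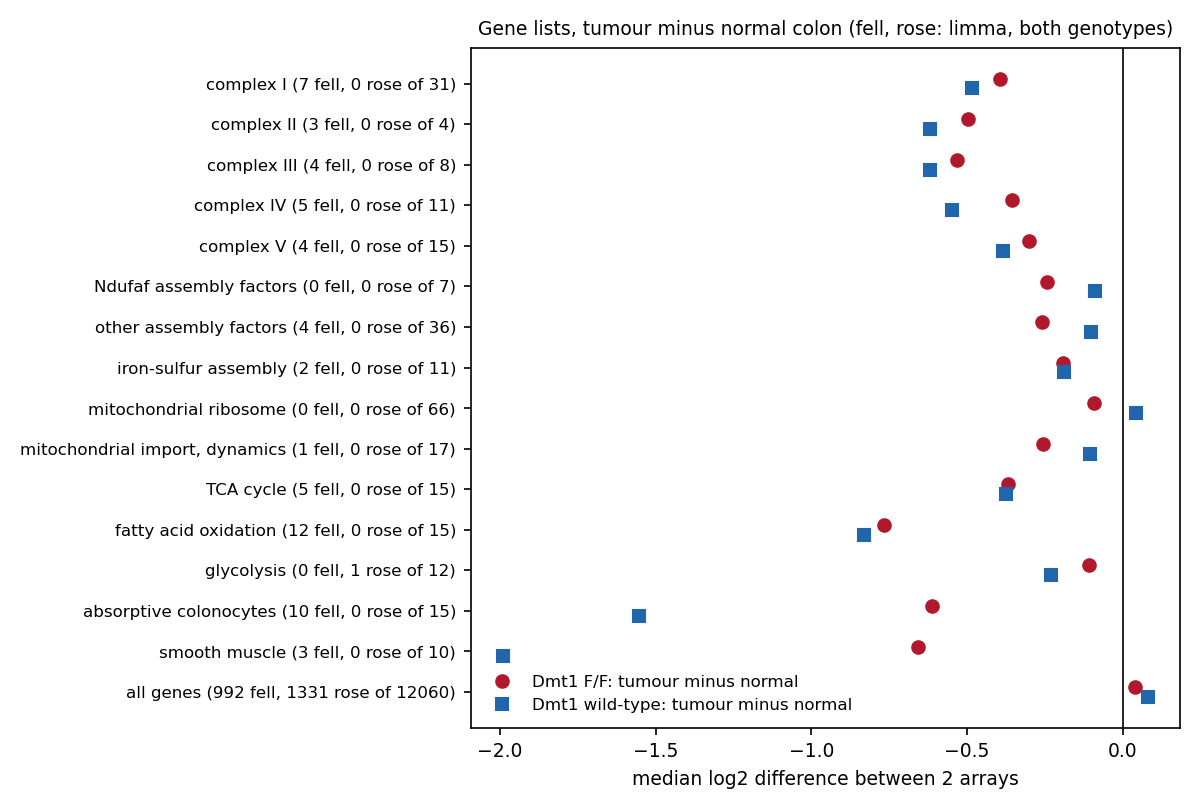
Median tumour minus normal log2 difference of each gene list, in F/F (circles) and wild-type (squares), with the numbers of genes that fell and rose in the limma fit beside each list name. Complexes I to V lie between -0.30 and -0.53 in F/F and between -0.38 and -0.62 in wild-type, and the mitochondrial ribosome genes lie at -0.09 in F/F and 0.04 in wild-type.

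Cell type markers moved with the tissue comparison. Of all genes tested 8.23% fell and 11.0% rose, and these shares stand beside each count of this paragraph. Of 15 absorptive colonocyte markers 10 fell and 0 rose, with a median of -1.10, and their summed linear signal was 15576 in F/F tumour and 7224 in wild-type tumour, against 24919 in F/F normal colon and 21633 in wild-type normal colon. Fabp2, a fatty acid-binding protein of absorptive cells, had -4.15 (adjusted p = 0.0112) and Tmigd1 -3.71 (adjusted p = 0.00726), while Slc9a3 had -0.60 (adjusted p = 0.0325) and Guca2b -0.36 (adjusted p = 0.125). Of the 10 that fell, Slc51a entered the test through the normal arrays alone. Of 10 goblet cell markers 3 fell, of 10 smooth muscle genes 3 fell, and of 10 fibroblast markers 6 rose and 1 fell. The median fitted difference was -0.53 for the goblet cell markers, -1.35 for the smooth muscle genes and 0.62 for the fibroblast markers. For all 10 smooth muscle genes both tumour arrays were below both normal arrays (29.2% of all genes). The smooth muscle median of tumour minus normal was -0.66 in F/F and -1.99 in wild-type. Macrophage markers rose in 4 of 10 and neutrophil markers in 2 of 10, and 9 of the 10 neutrophil genes entered the test through the tumour arrays alone. Of 9 B and plasma cell markers 0 fell or rose in limma, also at an unadjusted p under 0.05. In whole tissue, fewer cells of a type and less RNA of these genes per cell cannot be told apart. The part of these cell types in the oxidative phosphorylation values was not tested.

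Taken by genotype, the tissue difference was seen in each pair of arrays, with 1 array against 1 and no test. In F/F mice 21 of 78 genes were at or below -0.5 in tumour minus normal (12.9% of all genes) and 0 were at or above 0.5 (18.1% of all genes), and the median was -0.37. Of the 78, 76 were below 0 (46.7% of all genes). In wild-type mice 38 of 78 were at or below -0.5 (15.4% of all genes) and 0 were at or above 0.5 (21.3% of all genes), and the median was -0.49. Of the 78, 75 were below 0 (43.3% of all genes). By complex the F/F and wild-type medians were -0.39 and -0.48 for complex I, -0.50 and -0.62 for complex II, -0.53 and -0.62 for complex III, -0.36 and -0.55 for complex IV, and -0.30 and -0.38 for complex V. For the iron-sulfur subunits they were -0.50 in F/F and -0.55 in wild-type. The tumour minus normal difference was higher in F/F than in wild-type for 52 of 78 genes (42.7% of all genes), with a median difference of the differences of 0.10, against -0.06 over all genes. This could not be tested, as each group has 1 array. Colonocyte markers stood in the same order, with a median of -0.61 in F/F and -1.55 in wild-type. So did smooth muscle genes (-0.66 in F/F and -1.99 in wild-type) and goblet cell genes (-0.13 and -0.89). B and plasma cell, fibroblast and macrophage genes also had the higher median in F/F. Fat cell (-1.95 in F/F and -1.37 in wild-type), striated muscle and neutrophil genes (0.90 and 1.55) stood in the other order. Of the fat cell and of the striated muscle genes, 2 each passed the background level through the normal arrays alone. The B and plasma cell genes Pax5, Cr2 and Cd22 passed it through the F/F tumour array alone, and 9 neutrophil genes through the tumour arrays alone. The part of these cell types in this result was not tested.

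Set against the normal array of the other genotype, F/F tumour had a median of -0.33 with 18 of 78 genes at or below -0.5 (9.12% of all genes), and wild-type tumour a median of -0.50 with 38 of 78 (18.2% of all genes).

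The second question was whether these transcripts differ with the Dmt1 genotype. In the limma fit of F/F against wild-type 0 of the 78 genes passed, as did 0 of all 12060 genes (0% called), and at an unadjusted p under 0.05 there were 0 of the 78 against 8.22% of all genes. The smallest unadjusted p among the 78 was 0.0533 (adjusted p = 0.618). With 1 array per group in each tissue, these values do not show that the genotypes were alike.

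The differences themselves were small. In tumour the median F/F minus wild-type difference was 0.12 (all genes -0.02), and 62 of 78 genes were higher in F/F (46.2% of all genes). In normal colon the median was 0.04 (all genes 0.04), and 49 of 78 were higher in F/F (56.3% of all genes), a count that was 33 under quantile normalization and 36 under cyclic loess. In both tissues together 40 of 78 were higher in F/F (28.9% of all genes) and 7 were lower (26.4% of all genes). The count of 40 also depends on the scaling. It was 29 under quantile normalization (3127 of all 12079 genes) and 30 under cyclic loess (3346 of all 12069 genes). After median centring it was 45 (3420 of all 12077 genes).

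The 7 iron-sulfur subunits were each higher in F/F in both tissues on the deposited scale, by a median of 0.23 in tumour and 0.07 in normal colon. Uqcrfs1 was higher by 0.32 in tumour and 0.31 in normal colon, and Ndufs8 by 0.01 in each. In normal colon only 4 of the 7 were higher in F/F under quantile normalization or cyclic loess, and in tumour 6 of 7 were higher after median centring, so the normal colon direction depends on the scaling. The colonocyte signal was also higher in F/F than in wild-type tumour, by a median of 1.12 over its 15 genes. Over the other marker lists the median F/F minus wild-type difference in tumour was 1.58 for 9 B and plasma cell genes, 0.67 for 10 smooth muscle genes, 0.56 for 10 goblet cell genes and 0.47 for 6 fat cell genes. It was -1.10 for 10 neutrophil genes, -0.14 for 10 macrophage genes and -0.07 for 10 fibroblast genes. Pax5, Cr2 and Cd22 passed the background level only through the F/F tumour array, and the median of 1.58 is the Pax5 value. Csf3r, Cxcr2, Il1r2, Mmp8, S100a8 and S100a9 passed it only through the wild-type tumour array. The B and plasma cell and neutrophil medians are thus no independent support. The part of these cell types in the tumour values was not tested.

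**Figure D4:**
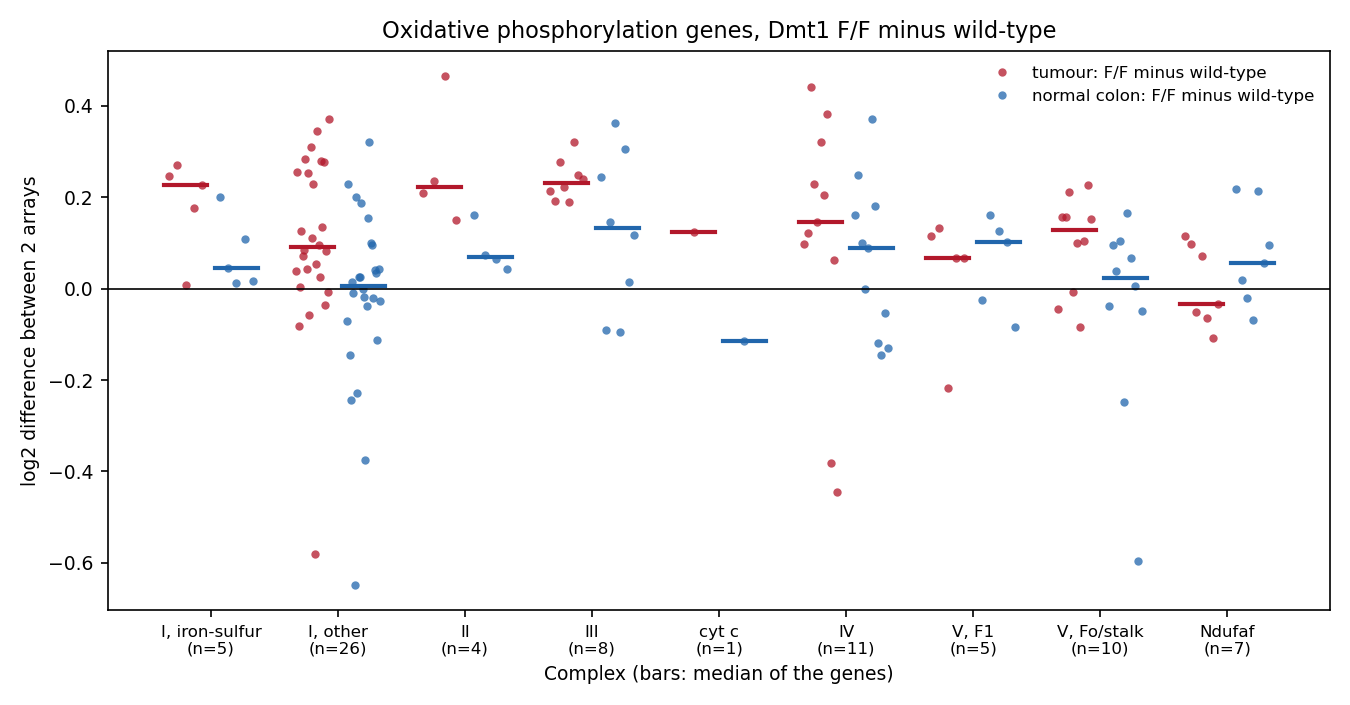
F/F minus wild-type log2 differences of the same 77 genes by complex, with 1 point per gene and the bar at the median; tumour in red at the left of each pair and normal colon in blue at the right. Most points lie within 0.4 of 0, and the lowest are Ndufa3 at -0.65 and Atp5o at -0.60 in normal colon and Ndufb11 at -0.58 in tumour.

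Few genes differed by 0.5 or more between genotypes. In normal colon 2 genes were lower in F/F by that much (5.75% of all genes) and 0 higher (5.93% of all genes). Ndufa3, a small complex I subunit gene, read 9.06 in F/F normal colon and 9.71 in wild-type normal colon, with 9.26 in F/F tumour and 9.18 in wild-type tumour. Atp5o, which encodes the stalk protein that ties the head to the peripheral stalk of ATP synthase, read 4.85 in F/F normal colon and 5.45 in wild-type normal colon, with 4.96 in F/F tumour and 4.73 in wild-type tumour. In both genes 1 normal array, the wild-type one, was the highest of the 4. The third lowest was Ndufb11 at -0.37, and the highest were Cox7a1 at 0.37, Uqcrc1 at 0.36 and Ndufb6 at 0.32.

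In tumour 1 gene was lower in F/F by 0.5 or more (4.35% of all genes) and 0 were higher (7.28% of all genes). This was Ndufb11, an X-linked complex I subunit gene, which read 4.19 in F/F tumour and 4.77 in wild-type tumour, against 4.81 in F/F normal colon and 5.18 in wild-type normal colon. It was lower in F/F in both tissues, near the background level of the array. The next lowest in tumour were Ndufa4 at -0.44 and Cox7c at -0.38. Highest in F/F tumour were Sdhc at 0.46, the complex IV subunit gene Cox5b at 0.44 and Cox7b at 0.38. For Sdhc and Cox5b the 2 normal arrays differed by less, 0.06 and 0.10.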

How the data were processed

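RNA of 4 groups was measured on 4 Affymetrix arrays, 1 per group, labelled from 400 ng of total RNA per the labels' protocols. The authors deposited log2 values; RMA and the oligo package are named, without versions, in the submitters' processing notes. The scale was taken as RMA log2 from the values, and scanner files were not used here. The array medians were 4.34 in F/F tumour, 4.34 in wild-type tumour, 4.27 in F/F normal colon and 4.30 in wild-type normal colon. The deposited log2 values were used with no further normalization.

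Of 41345 probe sets, the platform annotation gave 23521 one gene, 1814 several and 16010 none. Symbols were updated through gene IDs found in RefSeq for 23328 probe sets, and 193 kept the older symbol. Each of 22180 genes took its probe set of highest mean; 1082 had several. Genes above the median of all gene means (4.67) on at least 1 array were tested, 12060 in all. limma 3.58.1 (R 4.3.3) fitted tissue and genotype additively with a mean-variance trend (prior degrees of freedom 3.4), and p-values were adjusted by Benjamini-Hochberg over all tested genes at 0.05. Differences of 2 arrays were described against a size of 0.5, with no test. Replicates per group number 1, so no spread between animals enters any value. The number of arrays limits the precision.

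Named were the iron-sulfur and heme genes and Sdha, the 4 lowest and 2 highest fitted tissue differences among complex I accessory genes, complexes III, IV and V and the Ndufaf factors, in each tissue the 3 highest and 3 lowest genotype differences, the tissue-restricted isoforms, and the 2 highest and 2 lowest genes of each other pathway list and of the colonocyte list. The rule covers the other cell type lists too, which are given by counts. Further genes that passed the test, and Cox6a1, Cox6b1, Cox8a, Atp5a1, Atp5b, Slc51a, Pparg, Adipoq and Lep, were named after their values were seen. The members and lists were chosen with earlier results of these data known. Alternatives covered scaling, probe-set choice, level filter, trend and the size used for differences.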

Additional observations from a re-analysis of the deposited data

Results flagged for a closer look

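Tumour minus normal differences ran in opposite directions in the 2 genotypes for 3 genes, each by 0.1 or more. Atp5o had 0.11 in F/F and -0.72 in wild-type, Ndufa3 had 0.20 in F/F and -0.53 in wild-type, and Ndufa4 had -0.13 in F/F and 0.19 in wild-type. Each value is a difference of 1 array against 1, and the difference between genotypes was not tested. Atp5o was near the background level, between 4.73 and 5.45 on the 4 arrays.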

How the results depend on the processing

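No paired analysis was possible because replicate numbers cannot pair arrays with 1 per group; the additive fit as reported already compares the tissues within each genotype. No gene of the 78 changed the sign of a passed tissue difference in any setting run. The 24 genes that fell numbered 43 after median centring, 10 without the mean-variance trend and 16 without the level filter; quantile normalization gave 29, cyclic loess 31, the mean of probe sets 25 and a mean level of log2 6 gave 26. The 8 that did not pass without the level filter were Atp5g3, Atp5md, Ndufa1, Ndufb7, Ndufs1, Sdhd, Uqcrb and Uqcrc1, as more genes enter the adjustment. Median centring shifted the all-gene median from 0.07 to -0.03 and the calls from 1331 rising and 992 falling (57.3% rising) to 1298 and 1603 (44.7%), and put 36 genes at or below -0.5 in F/F. The F/F minus wild-type median in normal colon turned to -0.02 under quantile normalization and -0.01 under cyclic loess, in complex I to -0.04 and -0.03, and in complex V to -0.01 under quantile normalization. At a size of 1 the counts at or below it were 0 in F/F and 1 in wild-type, and 0 genes were lower in F/F normal colon or F/F tumour; at 0.25 they were 53 and 60, with 4 higher in F/F normal colon, and 3 lower and 15 higher in F/F tumour. Genes lower in F/F tumour numbered 3 without the level filter and 0 at log2 6, genes higher there 1 with the mean of probe sets, and genes lower in F/F normal colon 1 at log2 6. Their causes were not tested. With 1 array per group, spread between animals is unknown, and genes near the background level are the least certain.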

Other observations

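Further subunits were measured only by probe sets that the annotation assigns to several genes, mostly a subunit and a related sequence, so their values belong to no single gene. The brighter set of Cox6c, a complex IV subunit, read 9.69 in F/F tumour and 9.55 in wild-type tumour, against 10.2 in F/F normal colon and 10.1 in wild-type normal colon. The brighter set of Ndufs6, a complex I subunit, read 8.83 in F/F tumour and 8.56 in wild-type tumour, against 9.31 in F/F normal colon and 9.26 in wild-type normal colon. Tumour arrays were the low pair for both. The tumour minus normal difference was -0.62 in F/F and -0.57 in wild-type for the set of Uqcr10, a small complex III subunit. For Ndufb2 it was -0.53 in F/F and -0.60 in wild-type, and for Ndufb4 -0.28 in F/F and -0.34 in wild-type. Ndufs5, whose own probe set was below the background level, shares a second set with a pseudogene, which had -0.77 in both genotypes. Other shared sets belong to subunits that also have a set of their own. The dim set shared by Ndufs1 and Ino80dos was higher in tumour, by 0.21 in F/F and 0.18 in wild-type, against the fall of the set of Ndufs1 alone. The set shared by Uqcrb and a related gene had -0.74 in F/F and -0.06 in wild-type.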
